A study of Mus musculus with 2 samples.

Results

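The 10 transcription factors described here maintain or mark the undifferentiated state of mouse embryonic stem (ES) cells. They are Oct3/4 (Pou5f1), Sox2, Nanog, Klf2, Klf4, Klf5, Esrrb, Tfcp2l1, Rex1 (Zfp42) and Tbx3, and they were compared between Baf53b- and Baf53a-expressing, Baf53a-deficient ES cells. Each was found on the array through the RefSeq accession of its probes, which gave 12 probes for 10 genes, with 2 probes each for Nanog and Tfcp2l1 and 1 spot per probe. Of the 20823 genes with a symbol on the array, 16608 were well above background in both conditions, and all 10 factors were among them.

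The cells were Baf53a conditional knockout (cKO) cells, a single clone derived from E14 ES cells and grown with LIF on gelatin. In this clone both alleles of the endogenous Baf53a gene were mutated with CRISPR/Cas9, and a Tet-repressed, CRISPR/Cas9-resistant Baf53a kept the cells alive. The cells received an expression vector for Myc-tagged Baf53a or Baf53b, and 48 h later Tet was added to both groups at 1 μg/mL and kept for 6 days, which shuts off the resistant Baf53a. The share of cells that carried the vector was not given in the sources used here. One RNA of each kind was hybridised, so there was 1 array per condition, both on the same slide and in the same scan. Without replicates no difference has an estimate of the spread between cultures, no test was run, and every value below describes these 2 arrays.

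In naive ES cells, Oct3/4, Sox2 and Nanog bind many of the same regulatory regions, their own among them, and form the core of the pluripotency network. Around this core sit the naive factors. LIF acts through STAT3 on Klf4 and Tfcp2l1, and the naive factors can replace one another in part. These naive factors are lost as cells leave the naive state, while Oct3/4 and Sox2 persist longer, so the factors can in principle move apart. Baf53a and Baf53b are actin-related subunits of the BAF remodelling complex, which is known to work with Oct3/4 and Sox2 on chromatin.

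The promoters of the factors were searched for short letters that members of the network are known to bind. Of the 10 genes, 8 had a promoter in the RefSeq table of assembly GRCm38.p6, and Klf5 and Tbx3 were not matched. The 250 bases before the most upstream listed start of each gene were searched on both strands for a partial octamer (ATGCAAA, the letters read by Oct3/4), a Sox element (ACAATG), a GC box (GGGCGGG, read by Klf and Sp factors) and an Esrrb element (AAGGTCA). No match of one motif overlapped a match of another in these promoters. The partial octamer was found in 3 of the 8 promoters, those of Nanog, Sox2 and Zfp42, and in 4.12% of 32851 promoters of the same length. The 32851 take in every listed start, whereas each factor was given 1 start. The promoters of Nanog, Sox2 and Zfp42 are shown here because they hold letters of the kind that Oct3/4 binds. The partial octamer and the Sox element are in capitals. The sequences run 5′ to 3′ on the strand of the gene, at chr6:122707239-122707488 on the plus strand for Nanog, chr3:34649745-34649994 on the plus strand for Sox2 and chr8:43307010-43307259 on the minus strand for Zfp42.
Nanog: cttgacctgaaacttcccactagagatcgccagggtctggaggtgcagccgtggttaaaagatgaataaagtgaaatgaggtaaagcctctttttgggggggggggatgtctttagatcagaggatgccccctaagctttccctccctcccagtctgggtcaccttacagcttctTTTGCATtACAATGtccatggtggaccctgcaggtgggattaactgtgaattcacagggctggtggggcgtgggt
Sox2: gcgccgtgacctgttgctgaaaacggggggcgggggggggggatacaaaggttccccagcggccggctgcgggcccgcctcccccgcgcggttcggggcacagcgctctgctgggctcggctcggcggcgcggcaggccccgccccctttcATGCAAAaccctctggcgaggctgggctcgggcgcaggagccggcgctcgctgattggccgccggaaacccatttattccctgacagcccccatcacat
Zfp42: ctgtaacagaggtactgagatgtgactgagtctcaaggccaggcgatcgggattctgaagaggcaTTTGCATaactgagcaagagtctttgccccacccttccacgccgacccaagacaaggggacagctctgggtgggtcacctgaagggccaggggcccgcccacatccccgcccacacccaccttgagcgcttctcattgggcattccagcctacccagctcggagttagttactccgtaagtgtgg
The partial octamer lies on the other strand in Nanog and Zfp42, and in Nanog it and the Sox element lay 1 base apart. The Sox element was found in this 1 of the 8 promoters, against 10.7% of all promoters. A GC box was present in 5 of the 8, among them Pou5f1, Klf2 and Klf4, against 23.4% of all. The Esrrb element was found in 0 of the 8 and in 4.08% of all. These are matches of letters in a short window and not measured binding.

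Values are processed signals, the brightness of a spot after background subtraction and spatial detrending. For differences, the log2 signal was set to 0 at the 75th percentile of each array, which was a signal of 1161 with Baf53a and of 1128 with Baf53b. A difference is the value with Baf53b minus the value with Baf53a. Signals of different probes depend on the probe and were not ranked against each other. All 12 probes were well above background on both arrays, as were 29247 of the 39411 gene probes, and 0 spots of the 12 were saturated.

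The core factors were measured at nearly equal levels in both conditions. Oct3/4, the POU factor on which pluripotency depends, had a signal of 27167 with Baf53a and of 24042 with Baf53b, a log2 difference of -0.13. Sox2, its partner on composite octamer and Sox elements, had 4381 and 4461, a difference of 0.07. The array with Baf53b was thus the lower one for Oct3/4 and the higher one for Sox2.
Nanog, the homeodomain factor that stabilises self-renewal, was read by 2 probes of the same accession. The bright probe gave 8660 and 7787, a difference of -0.11, and the other gave 53.1 and 50.9, a difference of -0.02. Both were lower in Baf53b-expressing cells, and their mean was -0.07. Before background subtraction the second probe read 82 and 80 over a local background of 23 and 19, so its difference is known less well. RefSeq lists transcribed pseudogenes of Pou5f1, and whether the Oct3/4 probe also binds such copies was not examined, since no probe sequences were used here.

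The Klf factors are zinc finger proteins that bind GC-rich elements and uphold the naive state. Klf2 had 19594 and 19125, a difference of 0.01 after scaling. Klf4, a target of LIF and STAT3, had 10469 and 9890, a difference of -0.04. Klf5 had 9852 and 9895, a difference of 0.05. The Klf factors lay on both sides of 0, and the sign of each of them changed with the scaling, as given below.
Esrrb, an orphan nuclear receptor and cofactor of the core factors, had 45769 and 39983, a difference of -0.15, the lowest of the 10. Tfcp2l1, a CP2-family factor downstream of STAT3, had 7107 and 6714 with its bright probe and 3517 and 3405 with the other, differences of -0.04 and -0.01 and a mean of -0.02. Tbx3, a T-box factor of the naive network, had 13816 and 12776, a difference of -0.07. Esrrb and Tbx3 were the lower ones with Baf53b under every scaling tried, whereas Tfcp2l1 changed sign with it.
Rex1 (Zfp42), a zinc finger protein used as a marker of undifferentiated ES cells, had 96426 and 87075, a difference of -0.11. It was lower in Baf53b-expressing cells, as were Oct3/4 and Esrrb.

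**Figure D1:**
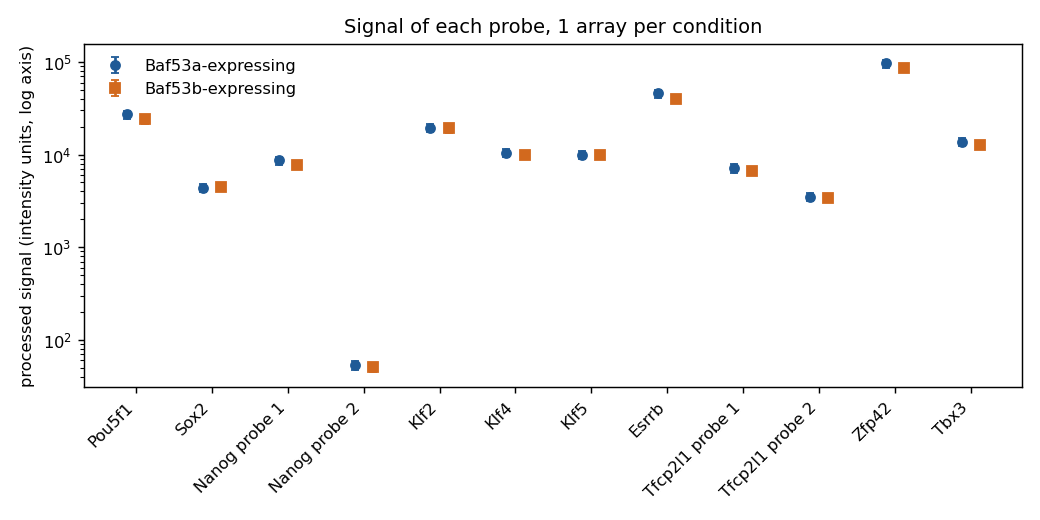
Processed signal (log axis, intensity units) of the 12 probes of the 10 factors on the array of Baf53a-expressing cells (circles) and of Baf53b-expressing cells (squares), before scaling. Bars are the error that the scanner software assigns to each spot, nearly the same share of the signal for every bright probe. Within each probe the bars of both arrays overlap. Nanog probe 2 is the dim one, at 53.1 and 50.9.

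Across the 10 factors the difference ran from -0.15 for Esrrb to 0.07 for Sox2, with a median of -0.05 and an SD of 0.07 among genes. Each of the 10 was within 0.2 of 0 (log2), as were 80.5% of all genes and 93.6% of the genes in the brightest of 5 equal groups. 0 of the 10 were at least 2-fold apart, and over all genes measured 0.193% were. In linear terms Esrrb stood at 0.899 and Sox2 at 1.05 times the level of Baf53a-expressing cells.
The differences were set against both errors that can be stated. The error that the scanner software assigns to each signal gave an error of 0.20 on the log2 scale to the difference of each bright probe and 0.22 to that of the dim Nanog probe. For every bright probe this error was nearly the same share of the signal, so it does not tell these probes apart. All 12 differences were smaller than this error. Since 93.6% of the genes in the brightest group were within 0.2 of 0, this does not set the factors apart from other bright genes. Probes printed as repeated spots on the same arrays gave a tighter measure. Over 68 such probes in the brightest of 5 groups, the spread between spots within each array gave an SD of 0.0590 for a difference of single spots. Divided by this SD, the differences were -2.59 for Esrrb, -2.28 for Oct3/4, -1.89 for the bright Nanog probe and -1.78 for Rex1. They were -1.20 for Tbx3, 1.15 for Sox2, -0.68 for the bright Tfcp2l1 probe and between -0.68 and 0.82 for the Klf factors. These quotients keep the shift shared by bright probes. All probes of that brightest group had a median difference of -0.06 and an SD of 0.108. This SD holds noise between spots within an array and leaves out culture, labelling and hybridisation.

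The share of lower values rose with brightness over the whole array. Of the 10 factors, 7 were lower in Baf53b-expressing cells and 3, Sox2, Klf2 and Klf5, were higher with the reported scaling, which decides the sign of Klf2, Klf4, Klf5 and Tfcp2l1. Over all genes 50.9% were lower, but in the brightest of 5 groups of genes, which held all of the factors except Nanog as the mean of its probes, 75.9% were. The share among the factors, 70%, was near that of bright genes. The median difference of the bright genes was -0.06 with an SD of 0.10, and 5 of the 10 factors lay below that median. Relative to it, Esrrb stood at -0.09, Oct3/4 at -0.07 and Rex1 at -0.04, while Sox2 stood at 0.13 and Klf5 at 0.11. Tbx3 lay near it at -0.01. The bright Nanog probe stood at -0.05, while the mean over both Nanog probes is not among the bright genes.

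**Figure D2:**
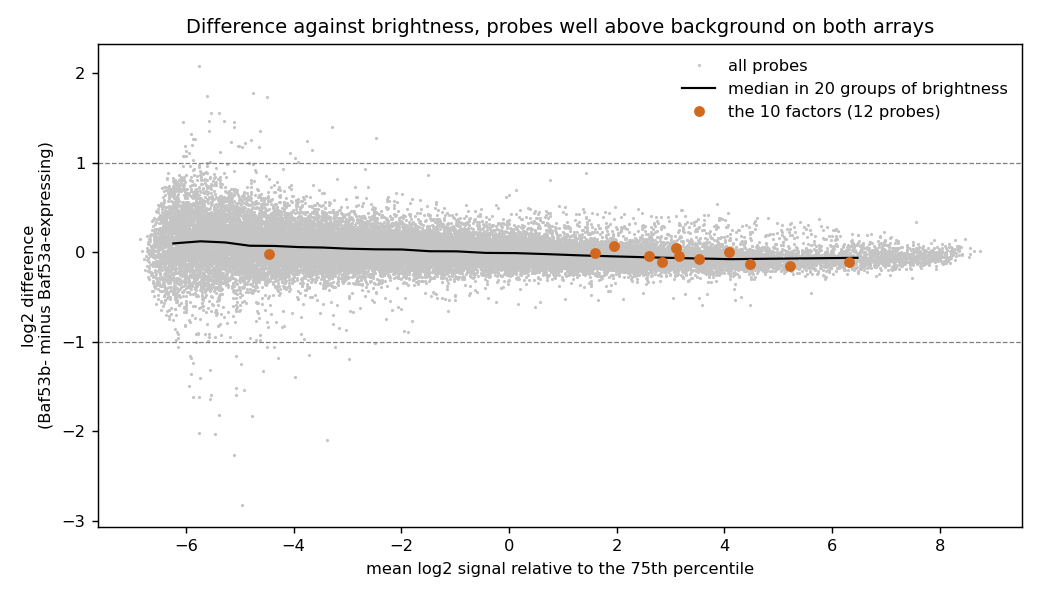
Log2 difference (Baf53b- minus Baf53a-expressing) against mean log2 signal relative to the 75th percentile, for probes well above background on both arrays (grey), with the median in groups of brightness (line) and the 12 probes of the factors (large points). Dashed lines mark a 2-fold difference. The line falls from above 0 at dim probes to about -0.06 at bright ones, and the factors lie close to it.

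The sign of single factors depended on how the arrays were scaled. Over the reported setting and 10 alternatives, Oct3/4, Nanog, Esrrb, Rex1 and Tbx3 were lower in Baf53b-expressing cells in all 11, and Sox2 was higher in all 11. Some of these settings could hardly move Oct3/4, Esrrb, Rex1, Tbx3 and Sox2, which have 1 probe each. Dropping or tightening the filter on dim probes, or using the brightest probe, shifted them by 0. Keeping outlier spots shifted them by 0.0002, and the authors' values by 0.0003. Centring on the median only added the same -0.05 to every factor. Thus all 11 is not a count of 11 separate checks. Esrrb ranged from -0.20 to -0.08, Oct3/4 from -0.19 to -0.05 and Sox2 from 0.02 to 0.13. Nanog ranged from -0.12 to -0.03, Tbx3 from -0.12 to -0.02 and Rex1 from -0.16 to -0.004, close to 0. Klf2 and Klf5 were each below 0 in 1 setting, when the arrays were centred on the median, and Klf4 (8 of 11) and Tfcp2l1 (7 of 11) also changed sign. With cyclic loess or quantile normalization, which remove the trend with brightness, 5 of the 10 factors were lower. In those settings 55.6% and 55.9% of the bright genes were lower, and with the median as centre 87.6% were, with 9 of the factors. Esrrb was the lowest factor in every setting, and Sox2 the highest in all except quantile normalization, where Klf5 was. Settings that use the same signals are not independent of one another.

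**Figure D3:**
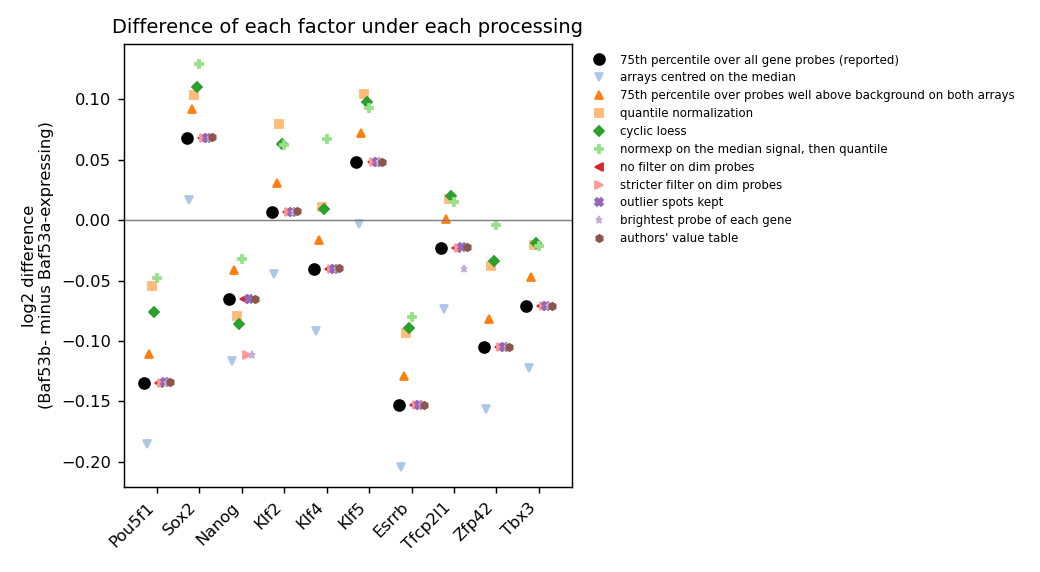
Log2 difference (Baf53b- minus Baf53a-expressing) of each factor with the reported scaling (large black points) and 10 alternatives (small symbols). Esrrb is lowest throughout, between -0.20 and -0.08, and the highest value is 0.13.

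Other genes of the network were described from lists, with the same comparison. The 22 partner and co-regulator factors were all measured and had a median of -0.06, with 14 lower and 8 higher in Baf53b-expressing cells. Of these 22, 12 were in the brightest of 5 groups of genes, which itself had a median of -0.06 with 75.9% lower. Etv4, an ETS factor downstream of FGF signalling, was lowest at -0.20, with -0.23 and -0.17 from its 2 probes, and Sall4, a zinc finger partner of Oct3/4, was highest at 0.10. The 13 target genes of Oct3/4, Sox2 and Nanog had a median of -0.02, from -0.14 for Dppa2 to 0.21 for Dppa3 (Stella). Of these 13, 9 were lower, but the median was below 0 in only 7 of the 11 settings. By brightness, 9 were in the brightest group and 4 in the next, in which 75.9% and 57.5% of all genes were lower. The 5 genes of the LIF pathway had a median of -0.02, from -0.18 for the receptor gene Lifr to 0.01 for Jak1, and the median was below 0 in 9 of the 11. In these lists 0 genes were at least 2-fold apart.
Of the 20 family relatives of the factors, 19 were measured, with a median of 0.03, and 13 were higher in Baf53b-expressing cells, but the median was below 0 in 2 of the 11 settings. Over all genes 49.1% were higher, with 63.8% in the dimmest of 5 groups and 24.1% in the brightest, and the relatives were spread over all 5 groups. Klf7 was lowest at -0.10. Tbx2, a relative of Tbx3, was highest at 0.55, at scaled log2 levels of -5.42 and -4.87. Its probe lay in the dimmest of 5 groups of probes, where the spread between spots within arrays gave an SD of 0.274. Esrrg, the relative of Esrrb expressed in muscle and brain, was not well above background on either array.

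Markers of other states were examined beside the factors, as a check on the label of the cells. Of the 8 genes of the primed epiblast, the state that follows the naive one, 3 were lower and 5 higher, with a median of 0.00 that ran from -0.05 to 0.03 over the settings. They ran from -0.11 for Zic2 to 0.50 for Fgf5, a dim probe at -4.12 and -3.62. Of the 7 primitive endoderm genes, all 7 were higher in Baf53b-expressing cells in all 11 settings. As for the factors, some of these settings could hardly move a gene with 1 probe. With the reported scaling the 7 genes had a median of 0.27, from 0.08 for Sox7 to 0.40 for Dab2. They lay in groups 2, 3 and 4 of brightness, counted from the dimmest, in which 60.8%, 54.4% and 42.5% of all genes were higher, with medians of 0.04, 0.01 and -0.02. Their summed level, in units of the 75th percentile, was 1.97 with Baf53a and 2.34 with Baf53b. Such sums weigh bright probes most. Of the 5 trophoblast genes, 4 were measured and all 4 were higher with the reported scaling, from 0.18 for Cdx2 to 0.44 for Krt8, with Elf5 not above background on either array and summed levels of 5.71 and 7.18. These 4 genes lay 1 each in all groups but the dimmest, against 49.1% higher over all genes. All 3 measured mesoderm genes were lower with the reported scaling, from -0.21 for Mesp1 to -0.02 for Tbx6, with summed levels of 0.146 and 0.135 and Mixl1 not above background on either array. Over all genes 50.9% were lower. Of the 3 mesoderm genes, 2 lay in the dimmest group of genes and 1 in the next, in which 36.2% and 39.2% of all genes were lower. The Mesp1 probe lay in the dimmest group of probes, to which the SD of 0.274 given above belongs. Neural ectoderm genes ran from -0.15 (Tubb3) to 0.01 (Pax6), with sums of 8.81 and 7.997, those of the primed epiblast summed to 8.35 and 8.51, and fibroblast genes ran from -0.15 (Thy1) to 0.22 (Col1a2), with sums of 1.19 and 1.14. The part of any other cell type in the values of the factors was not tested, and in bulk RNA fewer cells of a type and less RNA per cell cannot be told apart.

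**Figure D4:**
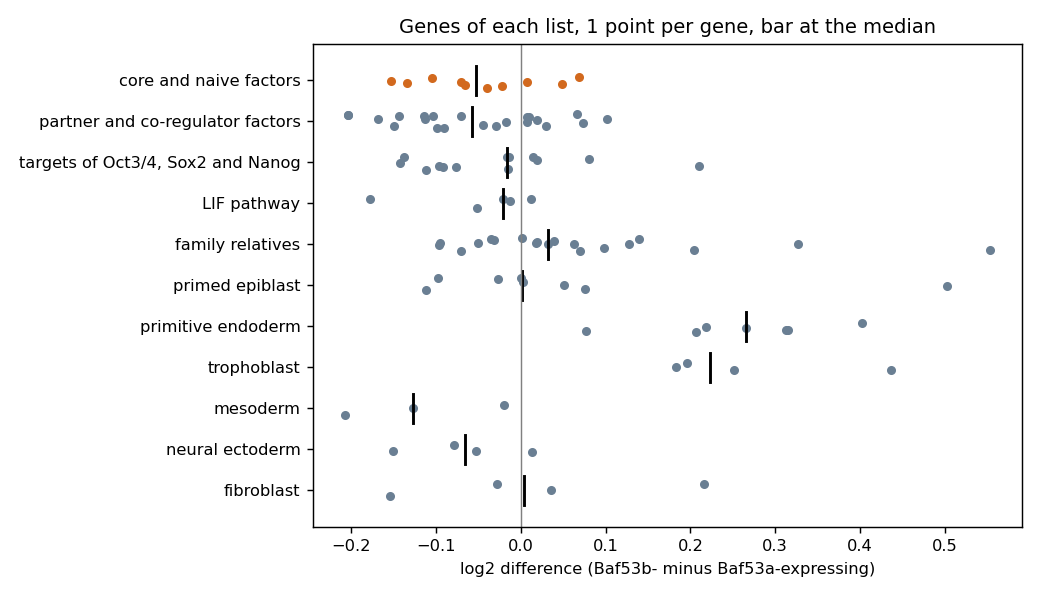
Log2 difference (Baf53b- minus Baf53a-expressing) of every measured gene of each list, 1 point per gene, with a bar at the median of the list. The 10 factors lie between -0.15 and 0.07, and all 7 primitive endoderm and all 4 measured trophoblast genes lie above 0.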

How the data were processed

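One RNA from Baf53a-expressing cells and one from Baf53b-expressing cells were labelled with Cy3 and hybridised to 1-colour mouse arrays. Images were read with Agilent Feature Extraction 11.0.1.1. The authors deposited spot intensity values (processed signal, background-subtracted and detrended but not normalized between arrays) with spot flags, and probe annotation of the mm9 build. Their deposited value table holds a ratio per probe: over 30479 probes per array, 100% equalled the processed signal divided by a single number per array (1160 and 1126) within 0.1%, with column medians of 0.257 and 0.262.

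Control spots and spots flagged as outliers were left out. Log2 intensities were averaged per probe, and the 75th percentile over 39411 gene probes was subtracted. RefSeq accessions named 27410 probes through a table of GRCm38.p6, another build than that of the design, used for names and promoters only. A gene is the mean of its probes well above background on both arrays. Of the gene probes, 75.2% and 76.4% were well above background, down to signals of 8.45 and 9.75. Counts use a difference of at least 2-fold. Summed marker levels take in every gene of a list.

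The factors, lists and alternatives were chosen with earlier results of these data known. Named genes are the 10 factors with all their probes and, from each list, the highest and the lowest gene and any gene 2-fold apart or above background on 1 array only. Python 3.11.15 (numpy 2.4.6, pandas 2.3.3) and R 4.3.3 (limma 3.58.1, for quantile, cyclic loess and normexp) were used. The procedure was tested on simulated data for 29247 probes with known log2 changes of 2 in 200. With the 75th percentile all 200 were found at least 2-fold apart, and 3 unchanged probes were called. The simulated pair held no trend with brightness. Its changes were far larger than the differences of the factors, so the test cannot speak to differences of their size. The number of arrays limits the precision.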

Additional observations from a re-analysis of the deposited data

How the results depend on the processing

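No paired analysis was possible because each condition had a single array, which also left no replicate to omit. Under the 10 alternatives 0 of the 10 factors were at least 2-fold apart. The median over the factors, -0.05 as reported, ran from -0.10 (arrays centred on the median) to 0.01 (normexp, then quantile), and the number of factors lower with Baf53b from 5 to 9. Over all genes 50.9% were lower as reported and 64.4% with the arrays centred on the median. Of the 100 values of single factors under the alternatives, 11 moved by more than the SD of 0.0590 between bright spots. All 11 came with quantile normalization, cyclic loess or normexp, and the cause was not tested. The other alternatives shifted every factor by less than that SD. Among them, centring on the median shifted all factors by -0.05, and the 75th percentile over probes well above background by 0.02. Thus 11 of 100 is not a measure of stability. Normexp used median spot signals, since mean signals were not analysed here. It added an offset of 50 to each signal, which makes differences of dim probes smaller, so its count of genes 2-fold apart is not on a like scale. Genes at least 2-fold apart numbered 32 as reported, 526 without a filter on dim probes, 0 with the stricter filter and 0 with normexp. The stricter filter left no mesoderm gene. Signal over background limits dim probes, such as the second of Nanog.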
